A study of Rattus norvegicus with 3 samples.

Results

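Genes for histone modifiers and chromatin remodellers were described in FRSK cells, a keratinocyte line from the skin of fetal rats. A gene was taken as a member when its symbol in the platform annotation names one of these enzymes or subunits: the Kmt, Setd and Ezh methyltransferases with Eed and Suz12, the Kdm demethylases, the Prmt arginine methyltransferases, the Kat acetyltransferases with Ep300, the Hdac and Sirt deacetylases, the Smarc, Arid and Chd remodelling proteins, and the Dnmt and Tet enzymes of DNA methylation. This gave 76 members of 15037 named genes, in 12 of 13 classes, since no Tet gene was among the named genes. Suz12 and Ep300 were not analysed here. Each member had 1 probe set, and the Entrez identifiers of all 76 were found in the RefSeq annotation.

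The study has 3 cultures with 1 array each. Cells given the opioid pentapeptide Met-enkephalin (Met-ENK) at 100 nM for 24 h, cells given the β-endorphin fragment β-END(1-9) at 100 nM for 24 h and unstimulated control cells were compared. All 3 cultures were of the same line in serum-containing medium, and no vehicle for the control is given in the sources used here. Values are log2 signals of whole-transcript arrays, so a difference of 1 is a doubling, and a signal cannot be compared between probe sets. There were no replicates, so no test between groups was possible, and with 1 array per culture the precision of any difference is unknown.

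Histone-modifying enzymes add or remove methyl and acetyl groups on the tails of histones, and chromatin remodellers use ATP to slide, evict or exchange nucleosomes. Acetylation and methylation of lysine 4 of histone H3 (H3K4) are found at active promoters, whereas methylation of H3K27 by Polycomb repressive complex 2 (PRC2) and of H3K9 accompanies silencing. In the epidermis, PRC2 and the DNA methyltransferase Dnmt1 are known to hold back differentiation genes in basal progenitor cells, and the H3K27 demethylase Kdm6b is known to act in differentiation.

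Calls of higher or lower needed a 1.5-fold difference, a log2 difference of 0.58, and a mean log2 signal of 6.41 or more, the median of all named genes. This level was passed by 62 of the 76 members (81.6%), against 7519 of the 15037 named genes by construction. It lies inside the signals of the 23 background probe sets, which run from 2.51 to 7.57 on every array. Of the members, 51 lay above that range on all 3 arrays and 22 stayed within it on all 3, of which 8 passed the level. A signal in that range cannot be separated from background by its level. In RNA from a whole culture, fewer cells of a type and less RNA per cell cannot be told apart.

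The labelled cell type was set against marker genes. All 10 measured basal keratinocyte markers lay above the background range, among them Krt14 at 16.61 with Met-ENK, 16.63 with β-END(1-9) and 16.70 in control cells. Others of the 10 were less level. Their differences from control ran from -0.59 (Pkp3) and -0.57 (Krt15) to 0.49 (Itga6) with Met-ENK. With β-END(1-9) they ran from -0.68 (Pkp3) to 0.01 (Itga6). All 10 measured endothelial markers were within it, as were 11 of 13 immune cell, 5 of 6 melanocyte, 9 of 13 fibroblast and 5 of 7 differentiated keratinocyte markers. Above it were Cd14 (8.48 with either peptide, 8.65 in control cells) and Cd74 (9.09 on all arrays) of the immune list. Mitf of the melanocyte list was also above it, at 9.56 with either peptide and 9.76 in control cells. The 4 fibroblast-list genes above it were Vim, S100a4, Col1a1 and Col3a1, and Pdgfra, Pdgfrb, Thy1, Dcn and Lum were among those within it. The summed signal of the fibroblast list was 14.04 with Met-ENK, 14.36 with β-END(1-9) and 14.67 in control cells on the log2 scale. Most of it came from Vim (13.90, 14.24 and 14.57 in that order). S100a4 also had its lowest signal with Met-ENK, at 9.30, 9.53 and 9.83 in that order. Col1a1 and Col3a1 differed from control by -0.06 and 0.00 with Met-ENK. The summed signal of the differentiated keratinocyte list was 12.60 with Met-ENK, 12.93 with β-END(1-9) and 13.48 in control cells, most of it from Cst6 (12.10, 12.55 and 13.23). The other gene of that list above the background range, Tgm1, had 10.56 with either peptide and 10.65 in control cells. The list's median signal ran the other way, at 6.10, 5.89 and 5.77. Within the background range, Krt1 (0.99) and Ivl (0.61) were higher with Met-ENK than in control cells. Tgm3 (-0.20), Sprr1a (-0.02) and Klk7 (0.00) were lower or equal. The part of these lists in the differences below was not tested.

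Of the 62 chromatin genes, 6 were at least 1.5-fold apart between some pair of arrays: the demethylases Kdm1b, Kdm4d and Kdm5b, the acetyltransferase Kat6a, the PRC2 subunit Eed and the helicase Smarcal1. The share of all 7519 genes apart in some pair was not computed. In each direction of each comparison, 0.559% to 6.02% of them were past 1.5-fold, so the 6 are not set apart by their number. Promoters are printed for 5 of the 6 members because they passed this limit, and Kat6a is named only. The sequences are RefSeq's on build GRCr8, from 250 bases before to 50 bases after the annotated gene start, given 5′ to 3′ on the gene's strand. They lie at chr17:17850019-17850318 on the minus strand (Kdm1b), chr8:19586363-19586662 on the minus strand (Kdm4d), chr13:48554147-48554446 on the plus strand (Kdm5b), chr1:153307451-153307750 on the minus strand (Eed) and chr9:81689218-81689517 on the plus strand (Smarcal1). Capitals mark matches, on either strand, to the GC box (GGGCGG) and the CCAAT box (CCAAT).
Kdm1b: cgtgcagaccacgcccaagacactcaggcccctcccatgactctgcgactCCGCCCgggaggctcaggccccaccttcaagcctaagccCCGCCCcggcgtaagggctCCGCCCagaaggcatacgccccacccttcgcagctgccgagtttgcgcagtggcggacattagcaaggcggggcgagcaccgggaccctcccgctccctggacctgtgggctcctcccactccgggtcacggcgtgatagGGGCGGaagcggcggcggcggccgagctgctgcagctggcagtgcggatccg
Kdm4d: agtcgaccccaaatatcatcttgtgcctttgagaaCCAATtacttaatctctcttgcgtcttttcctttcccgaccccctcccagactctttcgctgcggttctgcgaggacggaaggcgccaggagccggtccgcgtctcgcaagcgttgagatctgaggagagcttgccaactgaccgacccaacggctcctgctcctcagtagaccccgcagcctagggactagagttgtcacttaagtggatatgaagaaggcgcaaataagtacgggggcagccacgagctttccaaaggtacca
Kdm5b: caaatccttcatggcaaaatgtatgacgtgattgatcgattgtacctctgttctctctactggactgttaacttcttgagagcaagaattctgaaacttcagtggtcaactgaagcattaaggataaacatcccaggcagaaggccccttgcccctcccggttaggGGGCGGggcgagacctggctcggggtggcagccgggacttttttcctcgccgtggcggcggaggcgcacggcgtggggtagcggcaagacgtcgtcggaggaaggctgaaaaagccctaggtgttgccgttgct
Eed: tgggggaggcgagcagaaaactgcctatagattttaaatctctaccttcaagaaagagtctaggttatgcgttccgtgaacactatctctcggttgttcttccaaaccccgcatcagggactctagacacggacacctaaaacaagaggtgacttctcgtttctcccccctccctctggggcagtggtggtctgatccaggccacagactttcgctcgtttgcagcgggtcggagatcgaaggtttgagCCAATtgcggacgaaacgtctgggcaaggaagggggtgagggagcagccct
Smarcal1: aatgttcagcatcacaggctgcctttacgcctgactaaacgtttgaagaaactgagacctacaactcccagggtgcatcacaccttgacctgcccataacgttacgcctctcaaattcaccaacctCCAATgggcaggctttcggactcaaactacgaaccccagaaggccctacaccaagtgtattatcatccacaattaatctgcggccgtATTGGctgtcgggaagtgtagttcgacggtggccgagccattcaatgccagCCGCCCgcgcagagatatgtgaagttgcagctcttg

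The Kdm1b promoter held 4 GC boxes and 29 CpG dinucleotides, Kdm5b 1 GC box and 19 CpG, and Smarcal1 1 GC box, 2 CCAAT boxes and 15 CpG. Kdm4d and Eed had 1 CCAAT box each, with 19 and 15 CpG, and no GC box in this window. Over the 65 members with a promoter entry, 66.2% held a GC box, against 49.9% of the 12435 named genes with an entry and 34.9% of all 27457 promoters. Motif shares were not computed for the named genes past the level filter, whose median GC content was 61.7%, against 60.7% for members. A CCAAT box was in 44.6% of members, 37.9% of named genes and 37.7% of all promoters. The cAMP response element TGACGTCA was in 1.54% of members, 2.56% of named genes and 1.91% of all promoters, and in 0 of the 5 printed. TATAAA was in 3.08% of members, 11.7% of named genes and 14.3% of all promoters. The remaining motifs searched on both strands were the E-box CACGTG (9.23% of members, 7.94% of named genes and 6.65% of all promoters), the ETS motif CCGGAAG (16.9%, 13.2% and 9.22%) and the YY1 motif ATGGCGG (12.3%, 7.3% and 5.22%), and no match to them was in the printed windows. No 2 matches overlap in the printed windows. The median CpG count was 20 for members, 22 for the named genes past the level filter and 7 for all promoters, so members were close to the filtered genes and above the promoter table as a whole. A match is a description of letters and not a binding site.

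**Figure D1:**
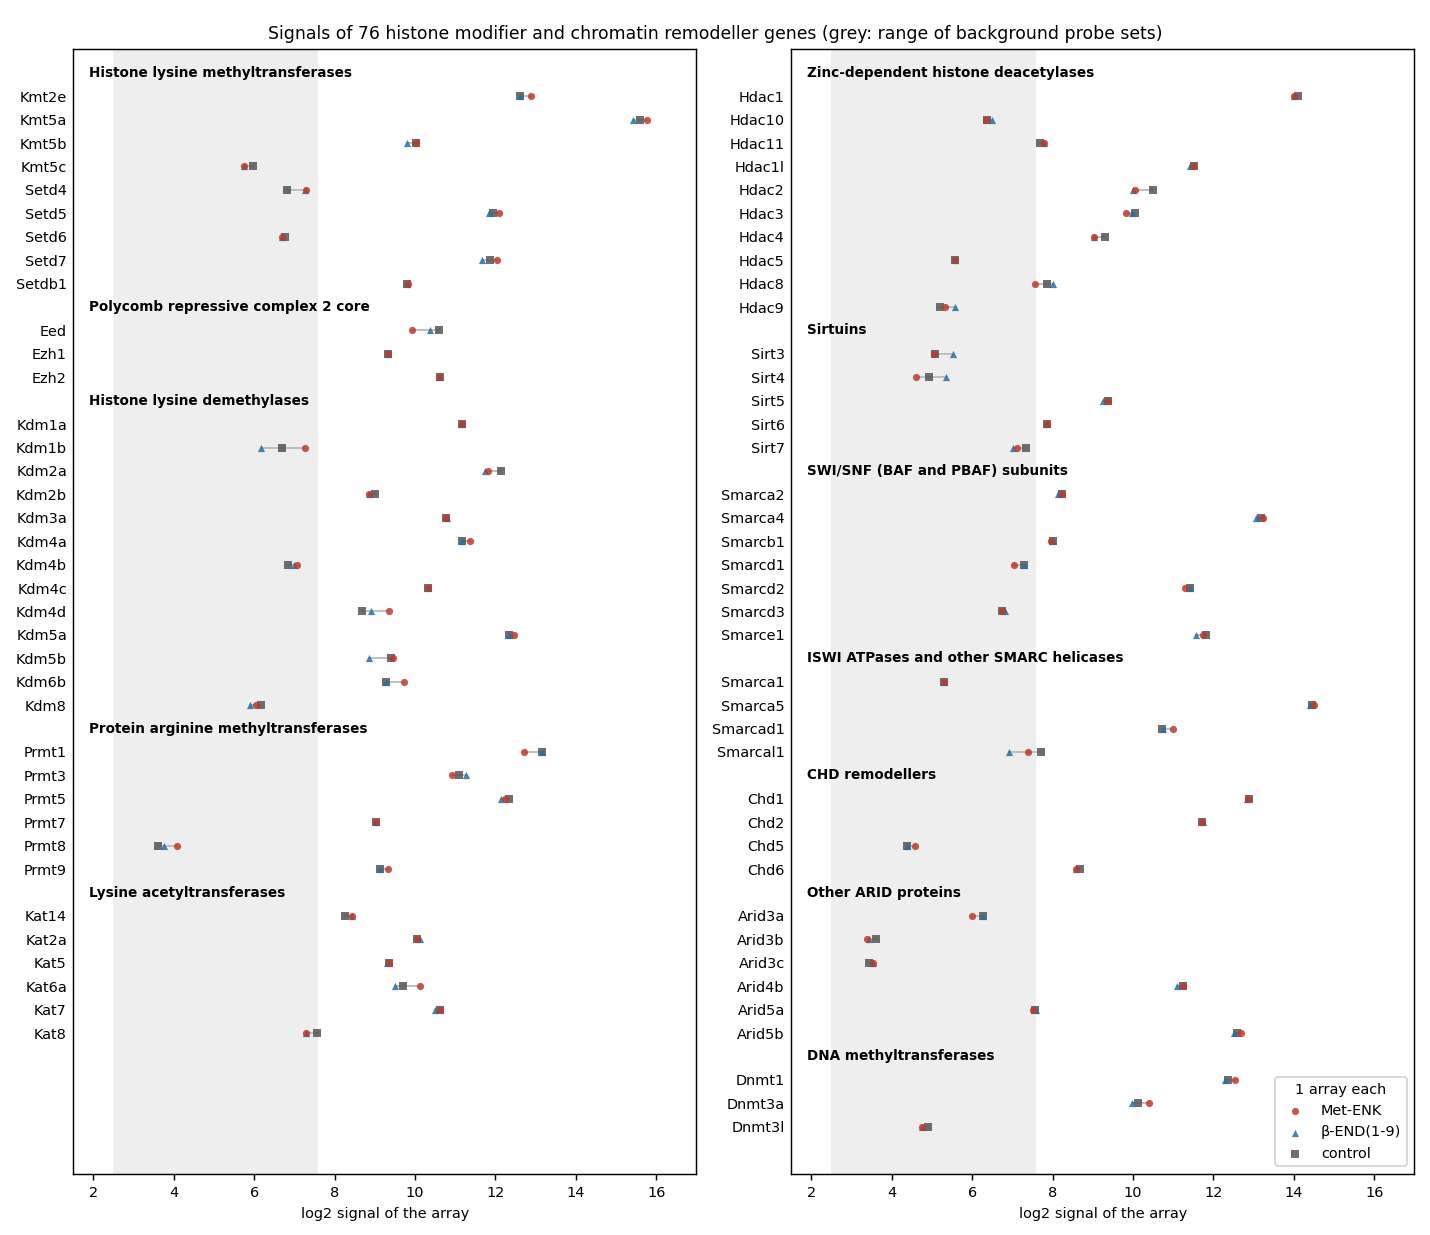
Log2 signals of the 76 members (rows, by class) on the Met-ENK (circles), β-END(1-9) (triangles) and control (squares) arrays, 1 array each, with the background range of 2.51 to 7.57 in grey. The 3 symbols of most genes overlap, and Kdm1b has the widest spread, 1.10.

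Between Met-ENK and control cells the chromatin genes were nearly level. Of 62, 1 was at least 1.5-fold higher with Met-ENK (1.61%, against 0.692% of all 7519 genes) and 1 at least 1.5-fold lower (1.61%, against 6.02%). The members' median difference was 0.00, the same as that of all genes, with 23 above 0, 24 below 0 and 15 exactly equal. After a new quantile normalization the calls were 2 higher and 1 lower, and 69.4% of members and 63.4% of all genes were above 0. At the lower limit of 0.32 on the log2 scale, 5 members were higher (8.06%, background 5.55%) and 4 lower (6.45%, background 15.6%). At 2-fold there were 0 members in either direction (background 0.0665% higher and 0.745% lower). Lower members were a smaller share than lower genes overall at 1.5-fold and at 0.32, a gap that 1 array per group cannot test. Lower calls over all genes also varied with genomic span (below), and the part of span in this gap was not tested.

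Between β-END(1-9) and control cells, 0 of the 62 members were at least 1.5-fold higher (background 0.559%) and 1 was lower (1.61%, background 2.27%). The median difference was -0.04, against -0.03 over all genes, with 13 members above 0, 38 below 0 and 11 equal. Both medians turned positive, to 0.05 and 0.04, after a new quantile normalization of the arrays, to 0.02 and 0.02 with the lowess trend on signal level removed, and to 0.02 and 0.03 with the trend along genomic span removed. At a limit of 0.32, 1 member was higher (background 2.47%) and 6 were lower (9.68%, background 11.8%), and at 2-fold 0 in either direction (background 0.0665% higher and 0.213% lower). These shares were near those of all genes.

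Between the peptides the members leaned toward Met-ENK. Of 62, 3 were at least 1.5-fold higher with Met-ENK than with β-END(1-9) (4.84%, against 1.89% of all genes) and 0 were lower (against 2.7%). At a limit of 0.32, 9 were higher (14.5%, background 10.9%) and 4 lower (6.45%, background 10%), and at 2-fold 1 was higher (background 0.0798%) and 0 were lower (background 0.213%). The 3 genes higher by 1.5-fold were 2 after quantile normalization, 2 with the lowess trend on level removed and 1 with the trend along genomic span removed. With the filter raised to the highest background probe set, Kdm1b, the member past 2-fold, dropped out and 2 of 52 members were higher, against 1.64% of all genes. The median stayed positive under the other scalings (0.01 to 0.05) and was 0.04 for members and 0.00 for all genes, with 59.7% of members above 0 and 24.2% below, against 45.4% and 33% of all genes. The β-END(1-9) array was the lowest of the 3 for 30 members (48.4%, against 32.9% of all genes) and the Met-ENK array the highest for 21 (33.9%, against 27.4%). Both comparisons with control use the same control array, so their values for each member are given side by side below.

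**Figure D2:**
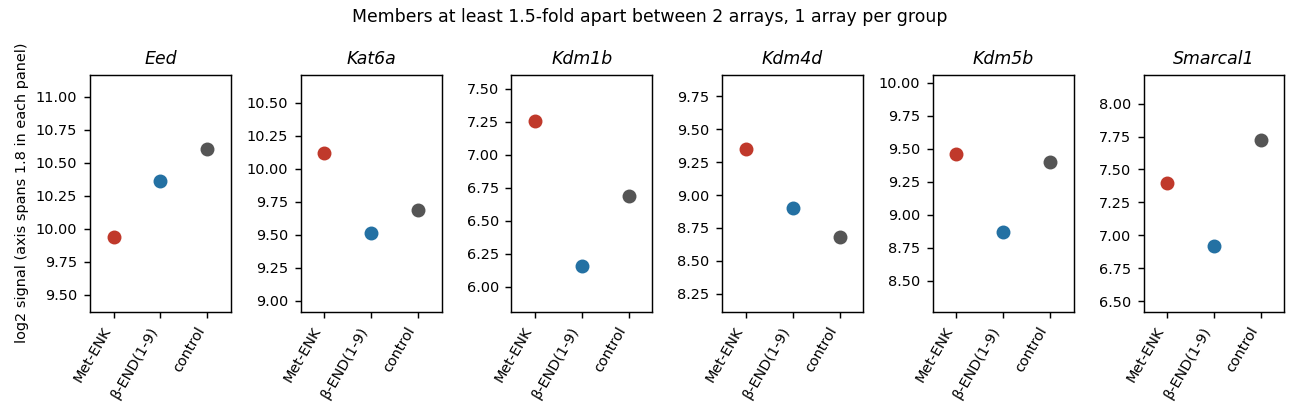
Log2 signals (vertical axes, each spanning 1.8) of the 6 members at least 1.5-fold apart between 2 arrays, with 1 point per array. The β-END(1-9) point is the lowest for Kat6a, Kdm1b, Kdm5b and Smarcal1, and lies between the other 2 for Eed and Kdm4d.

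Among enzymes that write lysine methylation, signals were higher with Met-ENK than with β-END(1-9) for 7 of the 8 members past the filter. The median difference was 0.25 (0.16 to 0.26 under the other scalings). Over all genes 45.4% were higher in this comparison, with a median of 0.00. Of the 8, 0 reached 1.5-fold, where 1.89% of all genes were higher and 2.7% lower by that much. Kmt5a, which monomethylates histone H4 lysine 20, had 15.77 with Met-ENK, 15.43 with β-END(1-9) and 15.61 in control cells. Kmt5b, which takes that mark further, had 10.03, 9.79 and 10.03 on the Met-ENK, β-END(1-9) and control arrays. Setd7, an H3K4 monomethyltransferase that also acts on other proteins, had 12.05 with Met-ENK, 11.67 with β-END(1-9) and 11.87 in control cells. For these 3 genes the β-END(1-9) array was the low one, by 0.34, 0.24 and 0.38 against Met-ENK. Kmt2e, a SET-domain protein that binds methylated H3K4, had 12.90 with Met-ENK and 12.61 on both other arrays. Setd5 had 12.10 with Met-ENK, 11.84 with β-END(1-9) and 11.95 in control cells. The H3K9 methyltransferase gene Setdb1 was 9.81 to 2 decimals on all arrays. Setd4 had 7.29 in Met-ENK cells and 7.27 in β-END(1-9) cells, against 6.83 in control cells, higher by 0.46 and 0.44 but within the background range. Setd6, which methylates the NF-κB subunit RelA, had 6.68 with either peptide and 6.76 in control cells, also within that range. Kmt5c did not pass the level filter, at 5.75 with either peptide and 5.97 in control cells.

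In PRC2, the scaffold gene Eed was lower with Met-ENK, while the 2 catalytic genes lay within 0.03 of control. Eed, whose protein binds methylated H3K27 and is needed for the activity of the complex, had 9.94 with Met-ENK, 10.36 with β-END(1-9) and 10.60 in control cells. It was 1.59-fold lower with Met-ENK (difference -0.67) and lower by 0.24 on the log2 scale with β-END(1-9) than in control cells. The 2 methyltransferase genes were flat, with Ezh2 at 10.59 with either peptide and 10.62 in control cells and Ezh1 at 9.33 on all arrays. Eed stayed at least 1.5-fold lower with Met-ENK under each of the other scalings tried. Among 4 accessory PRC2 genes past the filter, the histone-binding subunit gene Rbbp4, which is also part of other complexes, was lower as well, at 13.01 with Met-ENK, 13.20 with β-END(1-9) and 13.78 in control cells (differences from control of -0.77 and -0.57).

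Among the lysine demethylases, Kdm1b had the widest range of all members over the 3 arrays, and Kdm4d and Kdm5b also passed 1.5-fold. Kdm1b, a flavin-dependent demethylase of H3K4, had 7.26 with Met-ENK, 6.16 with β-END(1-9) and 6.69 in control cells. Met-ENK cells were thus 2.15-fold above β-END(1-9) cells (difference 1.10), with the control between them (0.57 for Met-ENK minus control, -0.53 for β-END(1-9) minus control). All 3 Kdm1b signals lay within the background range. Its paralog Kdm1a (LSD1), a subunit of the CoREST complex, stayed at 11.17 on all arrays.

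Kdm5b, a JmjC-domain demethylase of trimethylated H3K4, had 9.46 with Met-ENK, 8.86 with β-END(1-9) and 9.40 in control cells. It was set apart by the β-END(1-9) array, 1.51-fold below the Met-ENK array (difference 0.60) and -0.53 from control, whereas Met-ENK and control differed by 0.06. Removal of the trend along signal level took the Met-ENK to β-END(1-9) difference to 0.58, just under 1.5-fold, and removal of the trend along genomic span took it to 0.51. Its paralog Kdm5a, at 12.45 with Met-ENK, 12.33 with β-END(1-9) and 12.35 in control cells, moved little.

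Kdm4d, a demethylase of methylated H3K9, was the member at least 1.5-fold higher with Met-ENK than in control cells, at 9.35 with Met-ENK, 8.90 with β-END(1-9) and 8.68 in control cells (1.58-fold, difference 0.66). The β-END(1-9) difference from control was 0.22. Of its paralogs, Kdm4c stayed at 10.31 on all arrays, Kdm4a had 11.36 with Met-ENK, 11.16 with β-END(1-9) and 11.17 in control cells, and Kdm4b, within the background range, had 7.07 with Met-ENK, 6.997 with β-END(1-9) and 6.85 in control cells. Kdm6b, which removes H3K27 methylation, had 9.71 with Met-ENK, 9.27 with β-END(1-9) and 9.29 in control cells. This difference of 0.43 from control stayed below 1.5-fold. Kdm2a and Kdm2b, which act on H3K36 and bind CpG-rich DNA, were lower with both peptides, Kdm2a at 11.83 with Met-ENK and 11.75 with β-END(1-9) against 12.15 in control cells, and Kdm2b at 8.84 with either peptide against 9.01. Kdm3a, which acts on H3K9, had 10.78, 10.80 and 10.78 on the Met-ENK, β-END(1-9) and control arrays. Kdm8 stayed below the level filter, at 6.04, 5.89 and 6.16 in the same order.

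Protein arginine methyltransferases differed in both directions, with 0 of 5 past 1.5-fold in any comparison. Over all genes 0.559% to 6.02% were past it in each direction, so 0 of 5 does not set them apart. Prmt1, the main enzyme of asymmetric arginine dimethylation, had 12.72 with Met-ENK and 13.16 on both other arrays, a difference of -0.44. Prmt3, which methylates a ribosomal protein, had 10.93 with Met-ENK, 11.28 with β-END(1-9) and 11.10 in control cells. In both genes the Met-ENK array was the low one. Prmt5, the main enzyme of symmetric dimethylation, had 12.25 with Met-ENK, 12.13 with β-END(1-9) and 12.35 in control cells, Prmt9 had 9.34, 9.13 and 9.13 in that order, and Prmt7, an enzyme of arginine monomethylation, stayed at 9.02. Prmt8, a gene known from brain, was within the background range at 4.08, 3.76 and 3.62.

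Among lysine acetyltransferases, Kat6a stood out. Kat6a (MOZ), of the MYST family, had 10.12 with Met-ENK, 9.51 with β-END(1-9) and 9.69 in control cells. It was 1.53-fold higher with Met-ENK than with β-END(1-9) (difference 0.61), and differed from control by 0.43 with Met-ENK and -0.18 with β-END(1-9). After a new quantile normalization the difference between the peptides was 0.58, below 1.5-fold by a narrow margin, and with the trend along genomic span removed it was 0.52. Kat8, of the same family and an enzyme of H4K16 acetylation, was lower with either peptide, at 7.29 with Met-ENK and 7.28 with β-END(1-9) against 7.56 in control cells, within the background range. Kat14, a subunit of the ATAC complex, had 8.44 with either peptide and 8.27 in control cells. Kat2a, Kat5 and Kat7 differed from control by 0.00 with Met-ENK and by 0.06, -0.04 and -0.14 with β-END(1-9).

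Of the zinc-dependent histone deacetylase genes, 6 of 7 were below control with Met-ENK, with a median of -0.22, where 45.7% of all genes were below control with a median of 0.00. With β-END(1-9), 5 of 7 were below control, with a median of -0.10, where 56.1% of all genes were, with a median of -0.03. None of the 7 was past 1.5-fold in either comparison, where 0.559% to 6.02% of all genes were in each direction. Hdac2, a catalytic subunit of the NuRD, SIN3 and CoREST complexes, had 10.05 in Met-ENK cells and 10.01 in β-END(1-9) cells, against 10.49 in control cells. Hdac4, a class IIa enzyme, had 9.02 and 9.03 with Met-ENK and β-END(1-9), against 9.30 in control cells. Both genes thus had nearly the same signal with either peptide, below the single control array. Hdac1, the close paralog of Hdac2, had 14.012 with Met-ENK, 14.004 with β-END(1-9) and 14.11 in control cells. Hdac1l had 11.50, 11.43 and 11.53 in that order, and whether its probes also take signal from Hdac1 was not tested. Hdac3, the deacetylase of the NCoR complex, had 9.83 with Met-ENK, 9.98 with β-END(1-9) and 10.05 in control cells. Hdac8 had 7.55, 8.01 and 7.87 in that order, lower with Met-ENK than with β-END(1-9) by 0.45 on the log2 scale, and its Met-ENK signal was within the background range. Hdac11 had 7.78 with either peptide and 7.68 in control cells. Hdac5, Hdac9 and Hdac10 did not pass the filter. The median of the deacetylases for Met-ENK minus control kept its sign under the other scalings (-0.25 to -0.14), and that for β-END(1-9) minus control turned to 0.00 after quantile normalization.

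The sirtuins, NAD-dependent deacylases, had 3 of 5 genes past the filter. Sirt5, a mitochondrial enzyme, had 9.38 with Met-ENK, 9.25 with β-END(1-9) and 9.38 in control cells, and Sirt6, which deacetylates H3K9, stayed at 7.86. Sirt7, a nucleolar enzyme, had 7.12 with Met-ENK, 7.01 with β-END(1-9) and 7.33 in control cells, all within the background range. The mitochondrial Sirt3 (5.05, 5.52 and 5.08 in that order) and Sirt4 (4.59, 5.34 and 4.93) were within the background range. Sirt4 was the 1 member past 1.5-fold lower with Met-ENK than with β-END(1-9) (-0.75) once the level filter was dropped, where 3.05% of all genes were.

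Subunits of the SWI/SNF complexes, which slide and evict nucleosomes, were measured in part, as Arid1a, Arid1b, Arid2, Smarcc1 and Smarcc2 were not among the members. Of 7 subunit genes past the filter, 0 reached 1.5-fold in any comparison. Over all genes 0.559% to 6.02% did so in each direction, so 0 of 7 does not set these genes apart. Their differences from control lay between -0.24 and 0.05 with Met-ENK and between -0.25 and 0.09 with β-END(1-9). The ATPase gene Smarca4 (BRG1) had 13.24 with Met-ENK, 13.06 with β-END(1-9) and 13.19 in control cells. The alternative ATPase gene Smarca2 (BRM) had 8.24, 8.13 and 8.24 in that order. Neither ATPase gene differed by more than 0.18 between any 2 arrays. Smarce1 had 11.74 with Met-ENK, 11.56 with β-END(1-9) and 11.81 in control cells. The core subunit gene Smarcb1 had 7.97 with Met-ENK and 8.02 on both other arrays. Among the 3 Smarcd genes, whose proteins are alternative subunits, Smarcd1 (7.05 with Met-ENK and 7.29 on both other arrays) and Smarcd2 (11.28 and 11.42) were lower with Met-ENK, and Smarcd3 had 6.74, 6.83 and 6.74. All Smarcd1 and Smarcd3 signals lay within the background range.

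Smarcal1, an annealing helicase of stalled replication forks, was the member at least 1.5-fold lower with β-END(1-9) than in control cells. It had 7.39 with Met-ENK, 6.92 with β-END(1-9) and 7.72 in control cells. It was 1.74-fold lower with β-END(1-9) (difference -0.80) and differed by -0.33 with Met-ENK, so the control was the high array, and only the control signal lay above the background range. With the filter raised to the highest background probe set, Smarcal1 dropped out and 0 members were lower with β-END(1-9), against 1.83% of all genes. Smarcad1, a remodeller that acts at replication and in DNA repair, had 11.004 with Met-ENK, 10.75 with β-END(1-9) and 10.73 in control cells. The ISWI ATPase gene Smarca5 (SNF2H) had 14.50, 14.41 and 14.45 in that order, and its paralog Smarca1 stayed at 5.30, within the background range.

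The CHD remodellers differed little, with Chd1, which binds methylated H3K4, at 12.86 with Met-ENK, 12.84 with β-END(1-9) and 12.88 in control cells. Chd2 had 11.71, 11.75 and 11.71 in that order, and Chd6 had 8.58 with either peptide and 8.69 in control cells. Chd5, a gene known from neurons, was within the background range. Of the ARID genes outside SWI/SNF, Arid5b, whose protein is a partner of the demethylase Phf2, had 12.70 with Met-ENK, 12.52 with β-END(1-9) and 12.59 in control cells. Arid4b, a subunit of SIN3 complexes, had 11.24, 11.08 and 11.24 in that order. Arid5a had 7.51, 7.59 and 7.57, and the 3 Arid3 genes did not pass the filter. Both DNA methyltransferase genes past the filter were higher with Met-ENK than with β-END(1-9). The maintenance enzyme gene Dnmt1 had 12.53 with Met-ENK, 12.28 with β-END(1-9) and 12.36 in control cells, and the de novo enzyme gene Dnmt3a had 10.40, 9.99 and 10.13 in that order. In both, the control array lay between the peptides, and neither reached 1.5-fold (0.24 and 0.41 between the peptides). The cofactor gene Dnmt3l, known from germ cells, was within the background range.

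**Figure D3:**
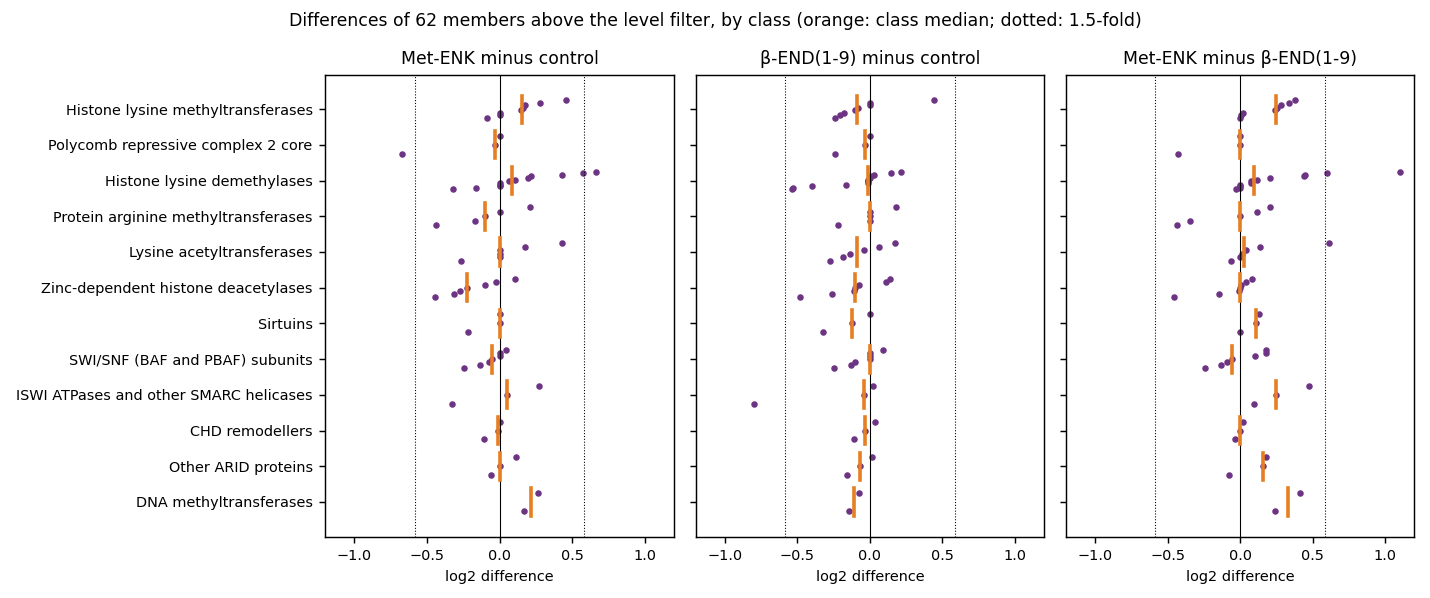
Log2 differences (horizontal axes) of the 62 members past the level filter, by class, in the 3 comparisons, with class medians in orange and 1.5-fold as dotted lines. Most points lie inside the dotted lines, and 3 demethylase or acetyltransferase genes lie to the right of them between the peptides.

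Partner subunits and other chromatin factors were also counted. A list of 183 such genes that the rule does not name had 137 measured and 125 past the filter. Of these, 0 were at least 1.5-fold higher and 7 lower with Met-ENK than in control cells (0% and 5.6%, against 0.692% and 6.02% of all genes). With β-END(1-9), 0 were higher and 2 lower than in control cells (0% and 1.6%, against 0.559% and 2.27%). Between Met-ENK and β-END(1-9), 5 were higher and 3 lower (4% and 2.4%, against 1.89% and 2.7%). The shares of lower genes were thus near those of all genes. The medians were 0.00, -0.09 and 0.02 in that order of comparisons. The 7 genes lower with Met-ENK than in control cells were Rbbp4, the PRC1-associated Yaf2 (-0.73), the acetyltransferase complex genes Supt7l (-0.87) and Meaf6 (-0.70), the COMPASS subunit gene Dpy30 (-0.62), Chrac1 (-0.66) of an ISWI complex and Ss18l1 (-0.62) of a neuronal SWI/SNF complex. The 5 genes higher with Met-ENK than with β-END(1-9) were the H3K9 demethylase gene Phf8 (0.78), the repair remodeller gene Ercc6 (0.70), the transcription factor genes Bcl11a (0.65) and Bcl11b (0.64), and the remodeller ATPase gene Ino80 (0.65). Chrac1 (-0.77), Meaf6 (-0.70) and Dpy30 (-0.62) were the 3 lower in that comparison, and Phf8 and Supt7l were the 2 lower with β-END(1-9) than in control cells (-0.69 and -0.59). All signals of Phf8, Bcl11a and Ss18l1 lay within the background range. So did the β-END(1-9) and control signals of Ercc6 and the Met-ENK signal of Chrac1.

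Members had longer genes than the series at large, with a median genomic span of 41.8 kb against 22.8 kb over all genes past the filter, and the differences of all genes varied with span. Over all genes, the median difference of Met-ENK from control was -0.09 in the quintile of shortest span and 0.00 in the longest, and between the peptides it was -0.02 in the shortest and 0.07 in the longest. From the shortest to the longest quintile, the medians of all genes between the peptides were -0.02, 0.00, 0.00, 0.03 and 0.07. Those of the 5, 6, 13, 16 and 22 members there were 0.04, -0.10, 0.02, 0.12 and 0.09. The longest quintile thus held 22 of the 62 members. In that quintile 55 of all 1503 genes were at least 1.5-fold higher with Met-ENK than with β-END(1-9) and 11 lower, against 15 higher and 99 lower of 1504 in the shortest. The 5 partner genes higher in that comparison had spans in the longest quintile, from 70.6 kb (Ercc6) to 99.3 kb (Phf8). Other partner genes in that quintile were not past 1.5-fold, such as Crebbp (126 kb, 0.41) and Baz2b (242 kb, -0.03). Of the 3 members higher between the peptides, Kdm5b (71.4 kb) and Kat6a (81.2 kb) were in it and Kdm1b (40.9 kb) was not. The part of span in these calls was not tested. Against control, 11 genes of the longest quintile were at least 1.5-fold higher with Met-ENK and 23 lower. The shortest quintile, which held 5 members, had 13 higher and 204 lower. With the trend along span removed, the members' median between the peptides was 0.01, against -0.01 over all genes, with 53.2% of members above 0 against 46.9%, and 1 member, Kdm1b, was past 1.5-fold higher. The 399 positive control probe sets of the arrays differed by a median of -0.23 between Met-ENK and control, by -0.12 between β-END(1-9) and control, and by -0.11 between Met-ENK and β-END(1-9). The 1153 negative control probe sets differed by 0.09, 0.03 and 0.02 in the same order. The part of either set of controls in the members' differences was not tested.

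**Figure D4:**
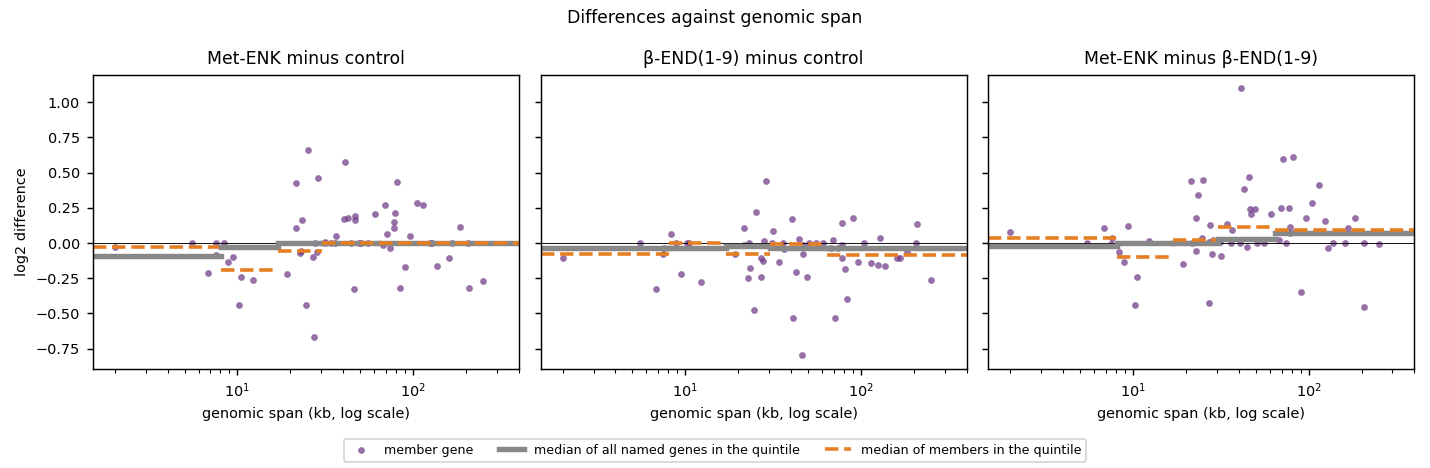
Log2 difference (vertical axes) against genomic span (kb, log scale) for the 62 members past the filter, with medians of all named genes (grey) and of members (orange, dashed) in quintiles of span. Between the peptides, the grey median is -0.02 in the shortest quintile and 0.07 in the longest, where 22 members lie.

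Exactly equal signals were common, as 5 of the 62 members (8.06%) had 1 value on all 3 arrays, against 11.8% of all genes past the filter, and 26 (41.9%) had 1 value on at least 2 arrays, against 44.6%. The 5 were Ezh1, Kdm1a, Kdm4c, Prmt7 and Sirt6.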

How the data were processed

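RNA from 3 FRSK cultures (Met-ENK, β-END(1-9), control) was measured on 1 Affymetrix array each. The authors deposited 1 log2 signal for each probe set and array, made with RMA, Expression Console and Transcriptome Analysis Console per the submitters' processing notes. Versions, the genome build and any centring were not given in the sources used here. Of 24834 probe sets, 1646 controls were left out, leaving 23188 transcript clusters, of which 15049 carry 1 gene symbol, 0 several and 8139 none, from the platform annotation (RefSeq GRCr8 changed 0 symbols). Genes with several probe sets took the one with the highest mean.

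Differences of log2 signals were computed between arrays with Python 3.11.15, numpy 2.4.6 and pandas 2.3.3. With 1 array per group there is no test, p-value or error. Lowess trends (statsmodels 0.14.6, fraction 0.3) were removed as alternatives. The calculations were tested on simulated data whose planted differences were all past the 1.5-fold limit. Recovery near that limit and the lowess and span settings were not tested there. Text names members past 1.5-fold, the 8 largest differences per direction and comparison, and each class's highest and lowest mean and widest range, and adds the other members for completeness. Members and lists were chosen with earlier results of these data known.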

Additional observations from a re-analysis of the deposited data

Results flagged for a closer look

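Kdm1b, Kat6a and Kdm5b were singled out because their Met-ENK signals lay above the control array and their β-END(1-9) signals below it, with at least 1.5-fold between the peptides (log2 differences of 1.10 for Kdm1b, 0.61 for Kat6a and 0.60 for Kdm5b). With 1 array per group this difference was not tested. Opposite signs against control were found for 17 of the 62 members, 14 with Met-ENK above and β-END(1-9) below and 3 the other way round, and for 1470 of all 7519 genes, of which 1110 and 360 ran in those directions. For Kdm5b the Met-ENK difference from control was 0.06, so its opposite signs rest on a small value.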

How the results depend on the processing

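No paired analysis was possible because each group has 1 array. The settings tried were 3 other scalings, 2 other level filters, the mean of several probe sets, removal of the trend along genomic span, omission of exactly equal values, 2 other fold thresholds and the mean in place of the median. A median was taken as moved at a shift over 0.1 on the log2 scale, a limit set here for want of replicates, and 0 of the members' medians moved by more under any of them. This limit is wider than the medians themselves (0.00, -0.04 and 0.04), so a change of sign could count as not moved. For β-END(1-9) minus control the median went from -0.04 to 0.05 after quantile normalization, and the members below 0 from 61.3% to 41.9%. At 2-fold, the members higher and lower were 0 and 0 for Met-ENK against control, 0 and 0 for β-END(1-9) against control, and 1 and 0 for Met-ENK against β-END(1-9). At a limit of 0.32 on the log2 scale they were 5 and 4, 1 and 6, and 9 and 4 in the same order. Quantile normalization and removal of the lowess trend on level each gave 2 members higher with Met-ENK than in control cells, Kdm1b (0.61 and 0.59) joining Kdm4d. Without the span trend 1 member was higher with Met-ENK than with β-END(1-9). Without the level filter 1 member (Sirt4) was lower in that comparison. With the filter at the highest background probe set 0 were lower with β-END(1-9) than in control cells. Of 450 differences of single named members under quantile normalization, lowess on level and removal of the span trend, 434 shifted by at most 0.1 and 0 called ones changed sign, while 10 moved by more under the first, 0 under the second and 6 under the third. All 3 Kdm1b and Sirt4 signals and 2 of 3 Smarcal1 signals lay within the background range.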
